A study of Mus musculus with 18 samples.

Results

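The transcripts described here come from 9 mouse genes that type I interferon is known to switch on and whose products act against viruses: the IFIT genes *Ifit1*, *Ifit2*, *Ifit3* and *Ifit3b*, the IFITM genes *Ifitm2* and *Ifitm3*, *Rsad2* (viperin), its neighbour *Cmpk2*, and *Bst2* (tetherin). They were picked by name, with earlier results of these data known, and are 9 of the 56748 genes listed in the count table. All 9 passed the filter on low counts that left 13691 genes to be tested. The cells were RAW 264.7, a mouse macrophage line, in 6 conditions with 3 libraries each, which the study's methods call biological replicates. Libraries were made from poly(A)-selected RNA and held 14423390 to 18851626 counts on genes. Gene positions are given as in the authors' files.

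Control cells were given neither TBHQ nor a stimulus. TBHQ cells received tert-butylhydroquinone, a phenolic antioxidant known to activate the transcription factor Nrf2, at 5 µM and were harvested at the end of 4 h. LPS cells received lipopolysaccharide at 0.1 µg/mL for 12 h, and PIC cells received poly(I:C), a synthetic double-stranded RNA, at 20 µg/mL for 12 h. LPS + TBHQ and PIC + TBHQ cells were first kept with TBHQ at 5 µM, 4 h long, before the same stimulus for 12 h. TBHQ was dissolved in DMSO, and no library of cells given DMSO alone, or of TBHQ without a stimulus at the later time, was analysed here. The comparison of TBHQ alone with the control therefore cannot tell TBHQ apart from its solvent or from the time of harvest, and the comparisons of stimulated cells with and without TBHQ cannot tell it apart from its solvent. Cells given TBHQ alone and cells stimulated after TBHQ differ in time as well as stimulus, and were not tested against each other. The methods give no harvest time for control cells. Comparisons of stimulated cells with the control may therefore also hold a difference in time, and after TBHQ also in solvent. Levels are in FPKM, fragments per kilobase of transcript, scaled to sequencing depth and by 1 further constant per library. Of 9 macrophage markers, 8 were above 1 FPKM in every library, and *Mrc1*, a mannose receptor, was below 1 FPKM throughout. The summed level of the 9 was 4401 to 5694 FPKM, with *Lyz2* (lysozyme) the most abundant, and each of 21 markers of T, B and NK cells, neutrophils, epithelium, fibroblasts and endothelium was below 1 FPKM in every library.

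LPS is sensed by a Toll-like receptor at the cell surface and double-stranded RNA by receptors in endosomes and the cytosol, and both routes can lead to secretion of type I interferon. Interferon binds its receptor on the same and neighbouring cells, and the kinases bound to that receptor activate STAT proteins, which join an IRF factor and bind the interferon-stimulated response element of antiviral genes. The products of those genes act at different steps of infection: IFITM proteins hinder the fusion of virus and host membranes, IFIT proteins bind foreign RNA, viperin makes a nucleotide that stops viral RNA synthesis, and tetherin holds budding particles on the cell surface.

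IFITM proteins act first, at entry. *Ifitm3* (ENSMUSG00000025492, chromosome 7, 140589499 to 140590683), which restricts enveloped viruses in endosomes, was the most abundant of the 9 transcripts. It measured 1255, 1242 and 1271 FPKM in the control libraries and 907, 899 and 949 FPKM with TBHQ alone. With LPS it measured 1669.6, 1618 and 1648 FPKM, and with LPS + TBHQ 1131, 1234 and 1268 FPKM. With PIC it measured 1912, 2078 and 1867 FPKM, and with PIC + TBHQ 1602, 1560.3 and 1565 FPKM. TBHQ alone was the lowest condition and PIC the highest, LPS + TBHQ libraries overlapped the control libraries, and no other neighbours in the order overlapped. The log2 fold change (log2FC) of LPS + TBHQ against LPS was -0.44 (SE 0.052, FDR = 6.4e-12), where FDR is the p-value of edgeR's quasi-likelihood test after Benjamini-Hochberg adjustment over the 13691 genes and the standard error (SE) comes from the spread of the replicates. For PIC + TBHQ against PIC it was -0.30 (SE 0.049, FDR = 4.6e-08). Both stimuli with TBHQ gave lower *Ifitm3* than without it in every library.

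*Ifitm2* (ENSMUSG00000060591, chromosome 7, 140534750 to 140535900), a related entry factor, was the 1 gene of the 9 that neither stimulus raised. Its levels were 170.1, 192 and 183 FPKM in the control and 119, 118 and 123 FPKM with TBHQ alone. LPS gave 155, 167 and 163 FPKM and LPS + TBHQ 129, 119 and 134 FPKM. PIC gave 176, 181 and 157 FPKM and PIC + TBHQ 132, 131 and 124 FPKM. The libraries fell into 2 ranges, with all 9 libraries given TBHQ below all 9 libraries without it. Within the lower range LPS + TBHQ overlapped both TBHQ and PIC + TBHQ, while every TBHQ library was below every PIC + TBHQ library, and within the upper range PIC overlapped both LPS and the control, while every LPS library was below every control library. Adding TBHQ to LPS gave a log2FC of -0.35 (SE 0.060, FDR = 3.9e-06), and adding it to PIC -0.39 (SE 0.068, FDR = 2.8e-07). Of the 50-base words in its annotated transcripts, 48.5% also occur in other genes, most of them in *Gm45717*, whose annotated span overlaps *Ifitm2* on the same strand and which had 0 counts, so how its reads were divided is uncertain. For *Ifitm3* that share was 10.02%, and a noncoding gene annotated across *Ifitm3* on the opposite strand had 263 counts over the 18 libraries, against 269826 for *Ifitm3*.

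IFIT proteins bind RNA once a virus is inside. *Ifit1* (ENSMUSG00000034459, chromosome 19, 34618271 to 34627409), which binds RNA caps that lack the methyl groups of host mRNA, measured 13.2, 10.7 and 9.42 FPKM in the control and 8.08, 7.92 and 8.79 FPKM with TBHQ alone. It measured 26.8, 25.8 and 25.7 FPKM with LPS and 8.15, 7.18 and 7.51 FPKM with LPS + TBHQ. It measured 60.1, 62.1 and 57.3 FPKM with PIC and 24.5, 25.7 and 25.3 FPKM with PIC + TBHQ. The PIC libraries were the highest and stood clear of the rest, PIC + TBHQ libraries overlapped LPS libraries, and LPS + TBHQ libraries overlapped TBHQ libraries below the control. The mean with LPS + TBHQ was 29.2% of that with LPS, at a log2FC of -1.78 (SE 0.056, FDR = 3.2e-20). With PIC + TBHQ it was 42.1% of that with PIC, at a log2FC of -1.24 (SE 0.040, FDR = 5.5e-18).

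*Ifit2* (ENSMUSG00000045932, chromosome 19, 34528094 to 34553819), a family member that binds AU-rich RNA, measured 16.0, 13.7 and 14.7 FPKM in the control and 7.10, 7.15 and 8.22 FPKM with TBHQ alone. LPS and LPS + TBHQ libraries measured 25.1, 25.2 and 22.2 FPKM and 5.65, 5.63 and 6.31 FPKM. PIC and PIC + TBHQ libraries measured 42.8, 42.7 and 43.5 FPKM and 15.2, 14.6 and 13.3 FPKM. LPS + TBHQ was the lowest condition, below TBHQ alone, and PIC + TBHQ libraries overlapped the control libraries, the only neighbours in the order to do so. TBHQ lowered the level with LPS to 24.3% of that with LPS alone, a log2FC of -2.04 (SE 0.082, FDR = 3.7e-23). With PIC the level fell to 33.4%, a log2FC of -1.57 (SE 0.054, FDR = 3.3e-21).

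*Ifit3* (ENSMUSG00000074896, chromosome 19, 34560931 to 34566131), whose protein forms complexes with other IFIT proteins, measured 9.82, 8.62 and 7.12 FPKM in the control and 3.40, 4.35 and 4.07 FPKM with TBHQ alone. It measured 33.0, 29.8 and 30.1 FPKM with LPS and 4.18, 2.69 and 3.79 FPKM with LPS + TBHQ. It measured 53.0, 60.4 and 51.4 FPKM with PIC and 16.1, 17.6 and 13.4 FPKM with PIC + TBHQ. The PIC libraries were highest, the LPS libraries next, and LPS + TBHQ libraries lay below the control and overlapped TBHQ alone. LPS + TBHQ held 11.5% of the LPS level, and the log2FC of -3.12 (SE 0.19, FDR = 1.5e-21) was the lowest of the 9 genes. PIC + TBHQ held 28.6% of the PIC level, with a log2FC of -1.80 (SE 0.13, FDR = 9.8e-18). Its near copy *Ifit3b* (ENSMUSG00000062488, chromosome 19, 34585370 to 34590801) was the least abundant of the 9, at 46 to 581 counts per library. Its levels were 2.12 to 3.28 FPKM in the control and 1.35 to 1.74 FPKM with TBHQ alone. They were 10.4 to 10.9 FPKM with LPS and 1.64 to 1.88 FPKM with LPS + TBHQ. They were 17.2 to 19.7 FPKM with PIC and 6.14 to 7.52 FPKM with PIC + TBHQ. As for *Ifit3*, PIC was highest, PIC + TBHQ lay between the control and LPS, and LPS + TBHQ overlapped TBHQ alone. The log2FC of *Ifit3b* was -2.599 (SE 0.057, FDR = 3.9e-18) for LPS + TBHQ against LPS and -1.38 (SE 0.11, FDR = 1.6e-13) for PIC + TBHQ against PIC. *Ifit3* shares 51.2% of its 50-base words with *Ifit3b*, and 44.95% of the words of *Ifit3b* occur in other genes, nearly all in *Ifit3*, so the division of reads between this pair is uncertain.

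*Rsad2* (ENSMUSG00000020641, chromosome 12, 26492745 to 26506451) encodes viperin, which converts CTP into a chain terminator of RNA synthesis, and it spanned the widest range, 20.2-fold between the lowest and highest condition means. It measured 23.6, 18.7 and 20.3 FPKM in the control and 15.3, 14.6 and 15.3 FPKM with TBHQ alone. It measured 85.9, 80.8 and 74.6 FPKM with LPS and 16.2, 15.6 and 16.3 FPKM with LPS + TBHQ. It measured 315, 318 and 281 FPKM with PIC and 101, 98.6 and 92.2 FPKM with PIC + TBHQ. No neighbouring conditions overlapped, and the order from low to high was TBHQ, LPS + TBHQ, control, LPS, PIC + TBHQ and PIC. LPS + TBHQ therefore ended below untreated cells while PIC + TBHQ stayed above LPS alone. The log2FC was -2.33 (SE 0.062, FDR = 9.6e-26) for LPS + TBHQ against LPS, which left 19.9% of the level, and -1.64 (SE 0.070, FDR = 4.7e-23) for PIC + TBHQ against PIC, which left 31.9%.

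*Cmpk2* (ENSMUSG00000020638, chromosome 12, 26519203 to 26529836) encodes a mitochondrial kinase of pyrimidine nucleotides and lies beside *Rsad2*. It measured 22.7, 18.1 and 17.98 FPKM in the control and 10.8, 11.2 and 12.8 FPKM with TBHQ alone. It measured 35.4, 32.8 and 32.4 FPKM with LPS and 8.69, 8.02 and 9.08 FPKM with LPS + TBHQ. It measured 102, 111 and 100.2 FPKM with PIC and 36.0, 30.2 and 31.7 FPKM with PIC + TBHQ. LPS + TBHQ was the lowest condition, PIC + TBHQ libraries overlapped LPS libraries, and the PIC libraries stood above all others. LPS + TBHQ differed from LPS by a log2FC of -1.97 (SE 0.065, FDR = 2.4e-21), and PIC + TBHQ from PIC by -1.66 (SE 0.089, FDR = 5.1e-21).

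*Bst2* (ENSMUSG00000046718, chromosome 8, 71986899 to 71990100) encodes tetherin, which acts last, at the release of particles. It measured 343, 337 and 334 FPKM in the control and 231, 242 and 267 FPKM with TBHQ alone. It measured 629, 603 and 716 FPKM with LPS and 384, 385 and 403 FPKM with LPS + TBHQ. It measured 699.8, 741 and 683 FPKM with PIC and 576, 565 and 569 FPKM with PIC + TBHQ. The LPS and PIC libraries overlapped at the top, TBHQ alone was lowest, and both stimulated conditions with TBHQ stayed above the control. TBHQ left 60.2% of the level with LPS, a log2FC of -0.73 (SE 0.078, FDR = 3.9e-15), and 80.6% of the level with PIC, a log2FC of -0.30 (SE 0.037, FDR = 2.6e-06).

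**Figure D1:**
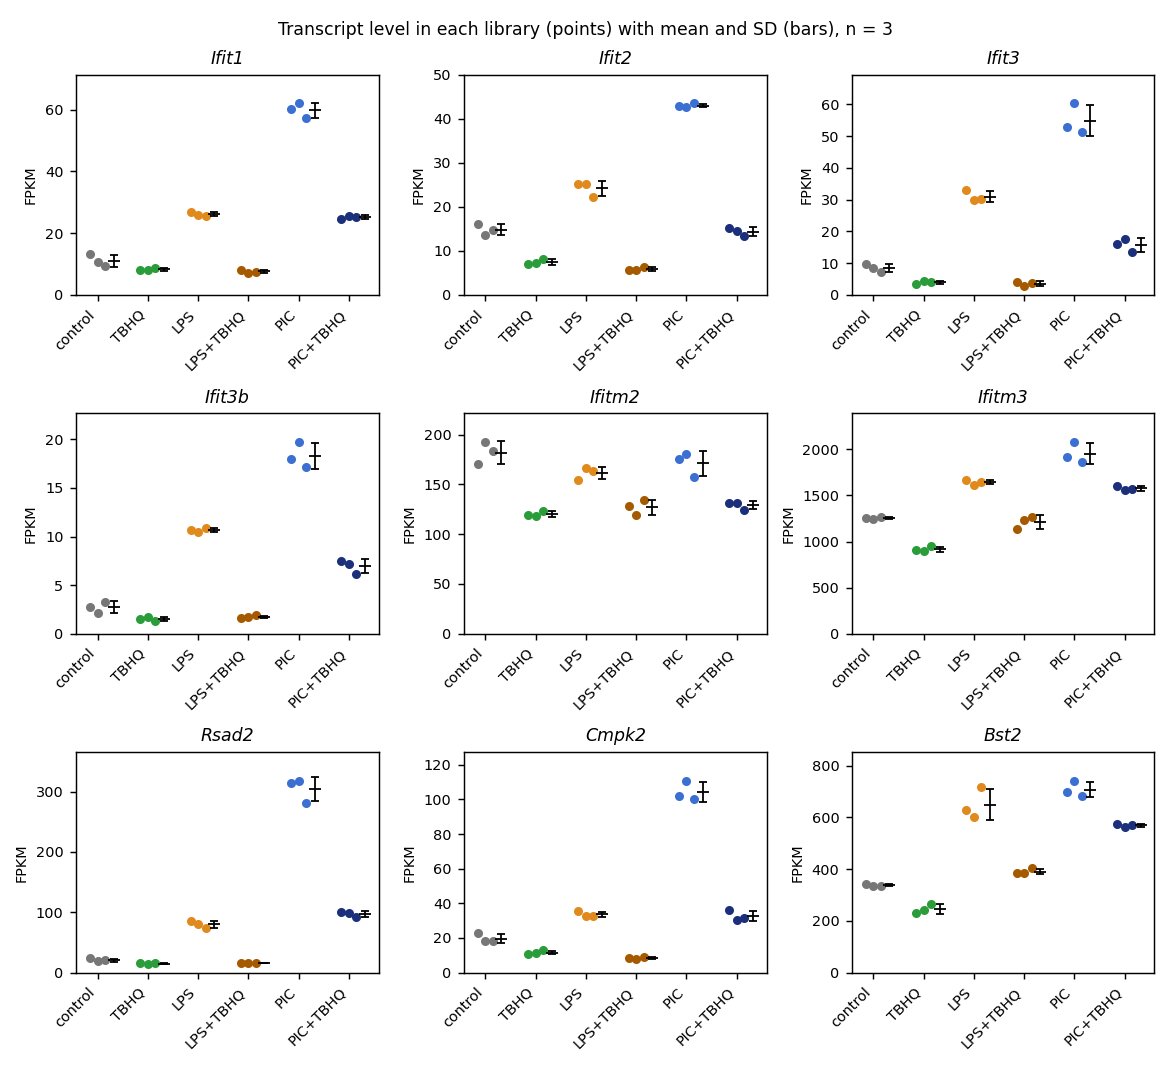
Level of each of the 9 genes in FPKM (vertical axes, each starting at 0) in the 6 conditions (horizontal axes), with 1 point for each library and a bar for the mean and SD of 3 libraries. The PIC libraries of *Rsad2* sit at 281 to 318 FPKM, above all its other libraries, whereas the 9 *Ifitm2* libraries without TBHQ lie above the 9 with it.

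After TBHQ alone, all 9 genes were lower than in the control at an FDR below 0.05, where 14.8% of all genes tested were lower and 14.2% higher, and in all 9 every TBHQ library lay below every control library, where 20.7% of all genes did. The median log2FC of the 9 was -0.60, against -0.000086 over all genes. The largest decreases were those of *Ifit3*, at -1.11 (SE 0.17, FDR = 4.0e-08), and *Ifit2*, at -0.98 (SE 0.094, FDR = 4.8e-14). The smallest was that of *Ifit1*, at -0.42 (SE 0.15, FDR = 9.2e-05). The spread among the 9 was narrower than in stimulated cells, with *Rsad2* at -0.47 and *Ifitm3* at -0.45 although their levels differ widely. In these bulk libraries, less RNA per cell and fewer cells that express a gene cannot be told apart.

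LPS alone raised 8 of the 9 genes above the control at an FDR below 0.05, where 24% of all genes were higher, and lowered 1, *Ifitm2*, where 24.1% were lower. The 8 increases were all smaller than a |log2FC| of 2, a size that 1.34% of all genes exceeded in this direction at an FDR below 0.01. The median log2FC was 0.94, against -0.0040 over all genes. *Ifit3b* rose by 1.95 (SE 0.18, FDR = 3.7e-16), *Rsad2* by 1.94 (SE 0.11, FDR = 3.0e-25) and *Ifit3* by 1.86 (SE 0.14, FDR = 1.6e-17) on the log2 scale. *Ifit2* rose by 0.70 (SE 0.090, FDR = 3.2e-12) and *Ifitm3* by 0.38 (SE 0.014, FDR = 6.2e-11). The value for *Ifitm2* was -0.18 (SE 0.062, FDR = 0.00415).

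PIC alone raised 8 of the 9 genes, where 28.6% of all genes were higher, at a median log2FC of 2.40, against -0.015 over all genes. *Rsad2* rose most, by 3.85 (SE 0.12, FDR = 2.2e-34). *Ifit3b* rose by 2.72, *Ifit3* by 2.67, *Ifit1* by 2.42 and *Cmpk2* by 2.40, and these 4 with *Rsad2* were the 5 past the stricter threshold of the study's methods, a |log2FC| over 2 with FDR under 0.01, where 2.7% of all genes were higher past it. *Ifit2* at 1.52, *Bst2* at 1.05 and *Ifitm3* at 0.62 rose without reaching that size. Over the alternatives to this fit the value of *Ifitm3* ran from 0.40 to 0.64. *Ifitm2* did not pass the test, at -0.11 (SE 0.081, FDR = 0.0677), but passed without control replicate 1 (FDR = 0.0158) or PIC replicate 2 (FDR = 0.0414). Over all fits without 1 library its log2FC ran from -0.16 to -0.034, with an FDR of up to 0.616. The comparisons of LPS and of PIC with the control use the same 3 control libraries. In the direct test of PIC against LPS, 7 of the 9 genes were higher with PIC, where 14.9% of all genes were. The largest differences were those of *Rsad2*, at 1.91 (SE 0.083, FDR = 2.2e-25), and *Cmpk2*, at 1.62 (SE 0.059, FDR = 8.5e-21). The values of *Bst2*, at 0.11 (SE 0.082, FDR = 0.0587), and *Ifitm2*, at 0.070 (SE 0.071, FDR = 0.355), did not pass the test, and *Bst2* passed it in DESeq2 (FDR = 0.0435). *Bst2* also passed in edgeR without LPS replicate 3 (FDR = 8.9e-04), PIC replicate 3 (0.0292) or TBHQ replicate 3 (0.0437), and over all fits without 1 library its log2FC ran from 0.069 to 0.19, with an FDR of up to 0.326. The log2FC of *Ifitm2* in those fits ran from 0.032 to 0.13, with an FDR of up to 0.749.

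In cells given LPS, TBHQ lowered all 9 genes at an FDR below 0.05, where 12.2% of all genes were lower, and in all 9 the LPS + TBHQ libraries lay below the LPS libraries, where 18% of all genes did. The median log2FC was -1.97, against 0.0023 over all genes. Decreases ran from -3.12 for *Ifit3* to -0.35 for *Ifitm2*, with the 4 IFIT genes, *Rsad2* and *Cmpk2* at -1.78 or lower and *Bst2* and both IFITM genes at -0.73 or higher. Against the control, 7 of the 9 genes were lower in LPS + TBHQ, where 22.5% of all genes were lower, and 1, *Bst2*, was higher, where 21.2% were. *Ifit2* differed from the control by -1.34 (SE 0.087, FDR = 4.5e-18) and *Ifit3* by -1.26 (SE 0.23, FDR = 1.1e-09). *Ifitm3* did not pass the test, at -0.062 (SE 0.051, FDR = 0.185). Without 1 library at a time its log2FC ran from -0.097 to -0.013, with an FDR of up to 0.819. With total library size *Ifitm3* passed, at -0.12. LPS + TBHQ thus left 7 transcripts below the level of untreated cells, of which 6 had been raised by LPS alone and *Ifitm2* had been lowered by it.

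In cells given PIC, TBHQ lowered all 9 genes as well, where 15.5% of all genes were lower, and the libraries of the 2 conditions did not overlap in any of the 9, where 20.4% of all genes lay lower without overlap. The median log2FC was -1.38, against 0.0089 over all genes. Values ran from -1.80 for *Ifit3* to -0.30 for *Ifitm3*. Against the control, 7 of the 9 remained higher in PIC + TBHQ, where 26.4% of all genes were higher, and *Ifitm2* was lower, where 26% were. *Rsad2*, at 2.21 (SE 0.11, FDR = 3.7e-27), was the 1 gene still past the stricter threshold, where 1.76% of all genes were. *Ifit2* did not pass the test against the control, at -0.048 (SE 0.086, FDR = 0.546). After TBHQ, 8 of the 9 were higher with PIC than with LPS, where 11.9% of all genes were. *Rsad2* differed by 2.604 (SE 0.043, FDR = 7.6e-28) and *Ifit3* by 2.14 (SE 0.22, FDR = 8.4e-16), and *Ifitm2*, at 0.022 (SE 0.056, FDR = 0.831), did not pass.

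The difference between the TBHQ effect with PIC and that with LPS was tested directly on the log2 scale. A positive value marks a smaller proportional decrease with PIC. The difference passed an FDR below 0.05 for 6 of the 9 genes, all positive, where 0.825% of all genes were positive and passed. Those were 113 of 13691 genes. The number was 59 in limma on log2(FPKM + 0.1), 72 without LPS replicate 3 and 235 with total library size. *Ifit3* differed most, by 1.32 (SE 0.24, FDR = 6.0e-07), and *Ifit3b* by 1.22 (SE 0.12, FDR = 1.5e-05). Over the alternatives to this fit the value of *Ifit3b* ran from 0.80 to 1.26, and DESeq2 gave no adjusted p for it. *Rsad2* differed by 0.69 (SE 0.094, FDR = 3.6e-07) and *Bst2* by 0.43 (SE 0.086, FDR = 6.1e-05). *Ifit1*, at 0.54 (SE 0.068, FDR = 7.6e-04), and *Ifit2*, at 0.47 (SE 0.098, FDR = 0.00173), passed in edgeR and lost the call in limma on log2(FPKM + 1). *Cmpk2* at 0.30 (SE 0.11, FDR = 0.117), *Ifitm3* at 0.15 (SE 0.071, FDR = 0.160) and *Ifitm2* at -0.048 (SE 0.091, FDR = 0.841) did not pass. *Cmpk2* and *Ifitm3* passed with total library size. Without 1 library at a time the value of *Ifitm2* ran from -0.12 to -0.0084, with an FDR of up to 0.981. The share of the stimulated level left after TBHQ was, for *Cmpk2*, 25.6% with LPS and 31.3% with PIC, and for *Rsad2* 19.9% and 31.9%. In FPKM, the mean of *Rsad2* fell further with PIC, from 304 to 97.2, than with LPS, from 80.4 to 16.0. The same held for *Ifit1*, *Ifit2*, *Ifit3* and *Ifit3b*. *Bst2* fell less with PIC, from 708 to 570, than with LPS, from 649 to 391. Whether the effect of TBHQ in stimulated cells differed from that of TBHQ alone was not tested.

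**Figure D2:**
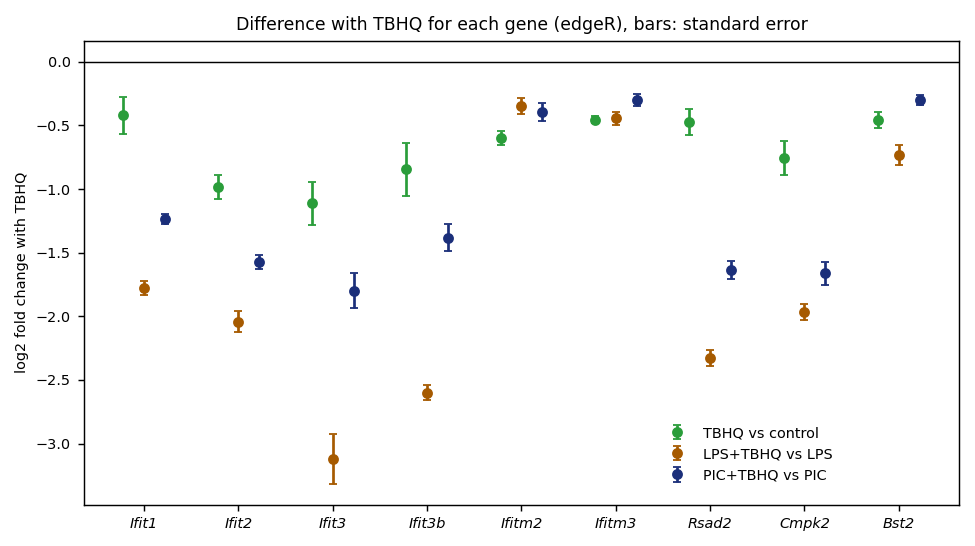
Log2FC with TBHQ (vertical axis) for each of the 9 genes (horizontal axis) in unstimulated, LPS-treated and PIC-treated cells, with bars for the standard error. All 27 values lie below 0, from -3.12 for *Ifit3* with LPS to -0.30 for *Ifitm3* with PIC.

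Across the 18 libraries the profiles of 8 of the genes were close to one another. Pearson's r of log2 CPM (counts scaled to library size, with TMM factors) for the 28 pairs that leave out *Ifitm2* ran from 0.778 to 0.992 with a median of 0.937, and for its 8 pairs with the others from 0.387 to 0.708. These libraries share 6 conditions, so the points are not independent. Among the 10442 other genes with a mean of at least 50 counts, those most like the mean profile of the 9 were *Irgm1* at 0.986, *Psmb10* at 0.984, *Parp14* at 0.983, *Slfn5* at 0.981 and *Oasl2* at 0.981, followed by *H2-T23*, *Apol9a*, *Rtp4*, *Parp12* and *Samd9l* down to 0.977. The genes nearest to *Rsad2* and to *Bst2* were *Gbp7* at 0.992 and *Zbp1* at 0.993. Those nearest to *Ifit1*, *Ifit2*, *Ifit3* and *Ifit3b* were *Znfx1* at 0.983, *Irgm2* at 0.980, *Mx2* at 0.986 and *Slfn5* at 0.984. For *Ifitm3* it was *Shisa5* at 0.988 and for *Cmpk2* *Mcl1* at 0.984. The genes close to *Ifitm2* in profile were of another kind and included the ribosomal protein genes *Rpl31* at 0.939 and *Rps14* at 0.935.

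Of the 9 genes, 8 lie near another of them, and *Bst2* lies alone on chromosome 8. In the authors' coordinates, for which the labels name both GRCm38 and mm39 and which match GRCm38 at the start of 0 of the 9 genes, the 4 IFIT genes lie within 99316 bases of chromosome 19 on the plus strand, with *Ifit1bl1* and *Ifit1bl2* between them on the minus strand. *Ifit1bl2* ends 127 bases before the start of *Ifit1* and is read in the opposite direction. *Rsad2* and *Cmpk2* are also read away from each other, 12751 bases apart on chromosome 12. *Ifitm2* and *Ifitm3* lie 53598 bases apart on the minus strand of chromosome 7, with *Ifitm1* between them at 25 counts over all libraries, too few to be tested.

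**Figure D3:**
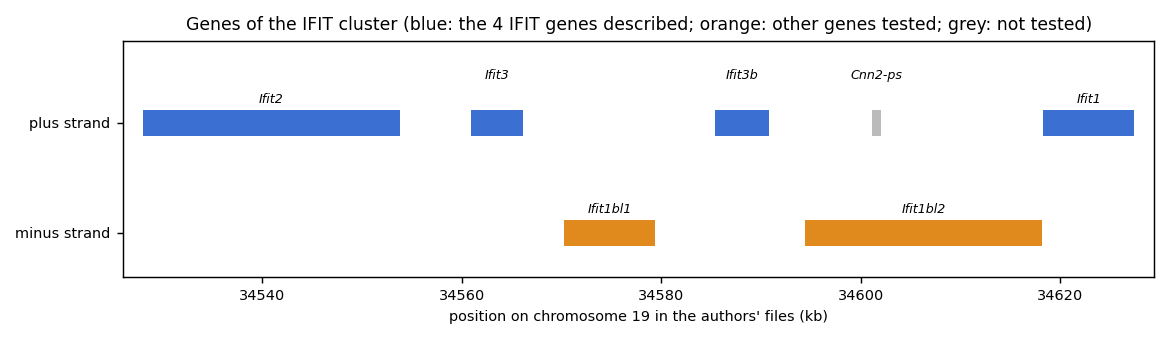
Genes of the IFIT cluster on chromosome 19, drawn to scale by position in kilobases (horizontal axis) and strand (vertical axis), with the 4 IFIT genes described in blue, other tested genes in orange and an untested gene in grey. The 4 IFIT genes lie on the plus strand and *Ifit1bl1* and *Ifit1bl2* on the minus strand.

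Of 7 other IFIT and IFITM genes in the table, 4 could be tested. *Ifit1bl1* and *Ifit1bl2*, relatives of *Ifit1*, had 1 to 45 and 7 to 78 counts per library. *Ifit1bl2* differed by -1.93 (SE 0.18, FDR = 9.7e-06) between LPS + TBHQ and LPS and by -1.04 (SE 0.27, FDR = 0.00119) between PIC + TBHQ and PIC. *Ifit1bl1* differed by -1.99 (SE 0.35, FDR = 0.00360) and -1.64 (SE 0.28, FDR = 6.3e-04) in the same comparisons. *Ifitm6* fell by 0.46 (SE 0.087, FDR = 4.4e-08) with LPS and by 0.41 (SE 0.030, FDR = 4.5e-07) with PIC on the log2 scale. *Ifitm5*, at 1 to 12 counts, did not pass in either. Thus 3 of the 4 were lower with TBHQ in each stimulus, where 12.2% of all genes were with LPS and 15.5% with PIC, with medians of -1.20 and -0.73. *Ifit1bl2* shares sequence with *Ifit1*, of whose 50-base words 7.13% also occur in it or in *Ifit1bl1*.

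Upstream of these genes, the ligand *Ifnb1*, interferon beta, had 0 to 3 counts in each library outside PIC, where it had 12, 4 and 6, too few to be tested. The receptor chains *Ifnar1* and *Ifnar2* did not pass the test for LPS + TBHQ against LPS, at 0.042 (FDR = 0.624) and -0.059 (FDR = 0.617). Nor did they for PIC + TBHQ against PIC, at 0.025 (FDR = 0.744) and -0.055 (FDR = 0.611). *Irf7*, which amplifies interferon production, measured 173 ± 7.73 FPKM with LPS (mean ± SD, n = 3) and 66.6 ± 1.44 FPKM with LPS + TBHQ, a log2FC of -1.38 (SE 0.040, FDR = 6.4e-25), and 202 ± 3.89 FPKM with PIC and 119 ± 4.55 FPKM with PIC + TBHQ, a log2FC of -0.75 (SE 0.035, FDR = 5.3e-18). *Stat2* and *Irf9*, whose proteins are part of the complex that binds the response element, had log2FC of -0.80 and -0.30 with LPS. With PIC, where they were also lower, the values were -0.52 and -0.22. Of the 20 tested genes of interferon production and signalling, 12 were lower with LPS + TBHQ than with LPS, where 12.2% of all genes were lower, and 8 did not pass the test, at a median log2FC of -0.25. With PIC + TBHQ 13 were lower than with PIC and 3 were higher, where 15.5% of all genes were lower and 15.8% higher, at a median of -0.25. The 3 higher genes were *Mavs*, an adaptor of cytosolic RNA sensing, *Irf3*, a factor for the interferon genes, and *Tlr4*, the receptor for LPS, at 0.22, 0.20 and 0.20. The sensors of double-stranded RNA *Ifih1* and *Tlr3* fell by 0.78 and 0.66 on the log2 scale in that comparison.

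Among 27 tested genes of other interferon-stimulated antiviral functions, all 27 were lower with TBHQ in LPS-treated and all 27 in PIC-treated cells, where 12.2% and 15.5% of all genes were, with medians of -0.87 and -0.64, beside -1.97 and -1.38 for the 9. *Isg20*, an RNA exonuclease, measured 31.5 ± 3.21 FPKM with LPS and 4.80 ± 0.276 FPKM with LPS + TBHQ, a log2FC of -2.72 (SE 0.097, FDR = 1.5e-22). *Gbp2*, a GTPase, measured 16.2 ± 1.11 FPKM and 2.32 ± 0.392 FPKM in the same conditions, a log2FC of -2.80 (SE 0.15, FDR = 1.1e-19). *Mx1*, another GTPase, had 14, 17 and 31 counts with LPS and 3, 1 and 1 with LPS + TBHQ. Its fitted log2FC, which rests on so few counts, is not reported here. At the other end, *Zc3hav1*, *Adar* and *Oas3* differed by -0.18, -0.29 and -0.33 with LPS.

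The promoters of the 9 genes were compared, since most of the genes moved together. All 9 were found in the RefSeq promoter table (250 bases before and 50 after the start, GRCm38.p6), *Ifit2* with 2 windows. The core of the interferon-stimulated response element, GAAA, any 2 bases and GAAA again on either strand, occurs in 7 of the 9 and in 3.44% of 32851 promoters, or 3.99% of 27025 genes. It also occurs in 10 of 21 other interferon-stimulated antiviral genes with a promoter in the table, in 5 of 19 genes of interferon production and signalling, and in 2 of 7 other IFIT and IFITM genes. It was not found in the windows of *Ifit2* and *Cmpk2*. In *Ifitm3* both matches lie after the start, at bases 3 and 20. A STAT dimer motif, TTCNNNGAA, occurs in 3 of the 9 and 8.30% of promoters. The NF-κB motif, GGGAC followed directly by TTTCC, occurs in 0 of the 9 and 0.155% of promoters. At so small a share, its absence from 9 genes carries little information. The core of the antioxidant response element, TGACNNNGC, occurs in 1, *Rsad2*, and 12.4% of promoters. A match is a description of letters and not a binding site. The stretches that hold the response element core before the start are printed below from 5′ to 3′ on the strand of the gene, with the matches on either strand in capitals, to show how alike they are.
Ifit1, chr19:34640775-34640823, plus strand: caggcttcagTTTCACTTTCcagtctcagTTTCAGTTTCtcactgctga
Ifit3, chr19:34583363-34583426, plus strand: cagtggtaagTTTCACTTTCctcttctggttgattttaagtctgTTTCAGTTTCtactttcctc
Ifit3b, chr19:34607759-34607822, plus strand: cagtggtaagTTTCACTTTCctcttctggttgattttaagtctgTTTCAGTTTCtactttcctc
Ifitm2, chr7:140955988-140956017, minus strand: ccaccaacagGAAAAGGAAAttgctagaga
Rsad2, chr12:26456553-26456582, minus strand: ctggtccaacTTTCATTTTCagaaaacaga
Bst2, chr8:71537577-71537612, minus strand: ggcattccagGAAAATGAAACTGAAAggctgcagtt
The 64-base stretches of *Ifit3* and *Ifit3b* are identical. In *Ifit1* and both of these the capitals read TTTCACTTTC and then TTTCAGTTTC, the same 2 matches in the same order, and in *Bst2* 2 matches overlap each other and the first of them also overlaps the STAT dimer motif.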

How the data were processed

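RAW 264.7 libraries were prepared and sequenced in paired-end runs. The submitters' processing notes name HISAT2 2.0.5, StringTie 1.3.3b and featureCounts 1.5.0-p3. The authors deposited raw counts per gene and FPKM. The deposited FPKM equalled FPKM recomputed from the counts and library totals times 1 constant per library (0.943 to 1.12). The constant differed by condition, lowest in control and TBHQ libraries (0.943 to 0.954) and highest in PIC libraries (1.11 to 1.12). FPKM levels and their percentages carry this constant. The methods describe strand-specific libraries, the labels both directional and non-directional ones, so strand use in counting is uncertain.

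Members and lists were chosen with earlier results of these data known. Counts were tested in R 4.3.3 with edgeR 4.0.16 (filterByExpr, TMM, glmQLFit, glmQLFTest) over 18 libraries with 1 coefficient per condition, and p-values adjusted by Benjamini-Hochberg over 13691 genes. Standard errors and overlap used log2 CPM with a prior count of 2. Of the other lists, the text names ligand, receptor, STAT and IRF genes and the 3 highest and 3 lowest by the comparisons of stimulated cells with and without TBHQ, and every tested IFIT and IFITM relative; values of some genes that these rules name are not reported here. Alternatives were DESeq2 1.42.0 on all libraries, edgeR on the groups compared, RLE factors, total library size, no count filter, a mean of at least 50 counts (10451 genes), a replicate block, limma 3.58.1 with a pseudocount of 1 or of 0.1 on log2 FPKM, and fits without each library in turn. Shared sequence used words of 50 bases in GENCODE transcripts. Promoters came from RefSeq. Figures were drawn with matplotlib 3.10.9.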

Additional observations from a re-analysis of the deposited data

Results flagged for a closer look

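On the log2 scale, the decrease with TBHQ differed between PIC and LPS for 6 genes. The difference was tested directly (edgeR, quasi-likelihood, FDR by Benjamini-Hochberg). In each gene the proportional decrease was smaller with PIC, where 0.825% of all genes tested passed in that direction. In FPKM, only *Bst2* of these 6 genes fell less with PIC than with LPS. The differences in log2FC were 1.32 for *Ifit3* (FDR = 6.0e-07), 1.22 for *Ifit3b* (FDR = 1.5e-05) and 0.69 for *Rsad2* (FDR = 3.6e-07). They were 0.54 for *Ifit1* (FDR = 7.6e-04), 0.47 for *Ifit2* (FDR = 0.00173) and 0.43 for *Bst2* (FDR = 6.1e-05). In limma on log2(FPKM + 1), *Ifit1* (FDR = 0.0700) and *Ifit2* (FDR = 0.0895) did not pass, and on log2(FPKM + 0.1) *Ifit1* did not (FDR = 0.0506). Over the alternatives the difference for *Ifit3b* ran from 0.80 to 1.26.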

How the results depend on the processing

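The counts of members called at an FDR below 0.05 moved by at most 2 under the alternatives and without any 1 library, and those for the comparisons of TBHQ with the matching cells without it stayed at 9. With the added limit of a |log2FC| above 2 and an FDR below 0.01, LPS against the control gave 0 members in edgeR, DESeq2 and both limma fits (8 higher and 1 lower in edgeR at an unadjusted p below 0.05), and 0 to 1 without 1 library at a time, 1 without control replicate 1, control replicate 3 or LPS replicate 3.

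The log2FC changed sign for 3 members that had not passed the test. With total library size, PIC against LPS gave -0.059 for *Ifitm2* and -0.015 for *Bst2*, and PIC + TBHQ against LPS + TBHQ -0.063 for *Ifitm2*. Without 1 library at a time, *Ifit2* ran from -0.10 to 0.012 in PIC + TBHQ against the control, above 0 without control replicate 1 or PIC + TBHQ replicate 3, and *Ifitm2* from -0.023 to 0.061 in PIC + TBHQ against LPS + TBHQ, below 0 without LPS + TBHQ replicate 2. Total library size moved the median log2FC of all genes by -0.22 for PIC against the control, -0.15 for PIC + TBHQ against the control and -0.13 for PIC against LPS. It moved the share of calls that were higher from 48.7% to 26.4% for PIC, 49.8% to 35.0% for LPS, 48.4% to 36.1% for LPS + TBHQ and 50.4% to 30.0% for PIC + TBHQ, each against the control. For PIC against LPS that share moved from 53.7% to 18.4%, and with TBHQ in both from 58.5% to 25.6%. It moved the other way for LPS + TBHQ against LPS, from 48.9% to 59.5%, and for PIC + TBHQ against PIC, from 50.6% to 70.3%. For the difference between stimuli it moved from 45.02% to 76.1%, and to 28.0% in DESeq2. With it *Ifitm2* passed in PIC against the control, at -0.33, *Ifitm3* in LPS + TBHQ against the control, at -0.12, *Ifit2* in PIC + TBHQ against the control, at -0.20, and *Ifitm3* and *Cmpk2* in the difference between stimuli.

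*Bst2* in PIC against LPS passed in DESeq2 (FDR = 0.0435), with RLE factors (0.0382), with no filter (0.0110) and with a mean of at least 50 counts (0.0473). The labels do not say that the replicate numbers pair the libraries, and r of same-numbered deviations lay between -0.0444 and 0.0645 over 45 pairs. Such values cannot show whether same-numbered libraries were grown or harvested together. With the replicate block *Bst2* passed at FDR = 0.0406. For the difference between stimuli, all genes called numbered 251, against 380 without a filter, 137 in limma on log2(FPKM + 0.1) and 160 without LPS + TBHQ replicate 2, *Ifit1* lost the call in limma on log2(FPKM + 1) (FDR = 0.0700) and log2(FPKM + 0.1) (0.0506), *Ifit2* in the former (FDR = 0.0895), and DESeq2 gave no adjusted p for *Ifit3b*. The cause was not tested.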

Other observations

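Within the list of other interferon-stimulated antiviral genes, TBHQ alone lowered 24 of 27 and raised 1, *Cxcl10*, chosen after its values were seen, which encodes a chemokine that attracts T cells. Of all genes tested, 14.8% were lower and 14.2% higher in that comparison. *Cxcl10* measured 3.46 ± 0.468 FPKM in the control and 5.41 ± 0.249 FPKM with TBHQ (mean ± SD, n = 3), a log2FC of 0.65 (SE 0.11, FDR = 5.8e-06) in edgeR. In stimulated cells the direction was the opposite, with 36.6 ± 1.72 FPKM with PIC and 12.8 ± 0.777 FPKM with PIC + TBHQ, a log2FC of -1.51 (SE 0.063, FDR = 1.5e-18). All TBHQ libraries lay above all control libraries, and all PIC + TBHQ libraries below all PIC libraries. The harvest at 4 h applies to the former only, and its part in the difference was not tested.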
